A study of Mus musculus with 12 samples.

Results

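The genes described here encode 10 proteins that place, copy, remove or protect DNA methylation in mouse cells, and they were chosen by name from a table of 55335 genes. They are Dnmt1, Uhrf1, Dnmt3a, Dnmt3b, Dnmt3l, Tet1, Tet2, Tet3, Tdg and Zfp57, and all 10 had enough counts to be tested. The 12 libraries hold polyadenylated RNA of a mouse embryonic stem (ES) cell line, sampled in 3 libraries on each of days 0, 2, 4 and 6. Per the labels, the medium in all 4 groups held KnockOut Serum Replacement and leukaemia inhibitory factor, a cytokine that supports self-renewal, and the cells were typically grown on gelatin with irradiated mouse embryonic fibroblasts as feeders. No allele or agent that differs between the days is named, and no step that started the time course is given in the labels. Nor is it stated whether the libraries of a day came from separate cultures, so a p-value reflects only how much these libraries varied, and that variation may be technical.

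In mammals, methylation sits mostly on cytosines that precede a guanine (CpG). After DNA replication UHRF1 binds the hemimethylated sites and brings in DNMT1, which copies the mark to the new strand, while DNMT3A and DNMT3B set new marks, helped by DNMT3L, a relative with no catalytic activity. The TET enzymes oxidise methylcytosine, and the glycosylase TDG cuts out the most oxidised forms, so that repair can restore cytosine. ZFP57 is a zinc finger protein that binds a methylated motif at imprinted loci and keeps methylation there through the corepressor TRIM28. In mouse ES cells, high Tet1 and Tet2 is typical of the pluripotent state, and the balance of these activities is known to shift when cells leave it.

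Levels are given as counts per 1e6 counts (CPM), scaled by TMM, a factor per library that centres most genes. The 12 libraries held between 6.95 and 13.27 times 1e6 counts. A list of 8 ES cell markers, among them Pou5f1, Nanog and Zfp42, summed to 4636 to 4648 CPM at day 0, 1341 to 1375 at day 2, 757 to 785 at day 4 and 609.5 to 643 at day 6, so the labelled cell type was matched by its markers most clearly at day 0. A list of 8 extraembryonic endoderm markers went the other way, with 537 to 547, 1844 to 1908, 2932 to 2972 and 3137 to 3188 CPM. Fibroblast genes (10 in the list) summed to 27.9 to 31.8, 24.5 to 26.6, 38.1 to 42.9 and 174 to 192 CPM, with Lum and Fap at 0 counts at day 0 and Dcn at day 2. In bulk RNA, fewer cells of a type and less RNA per cell cannot be told apart, and that holds for every difference below.

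**Figure D1:**
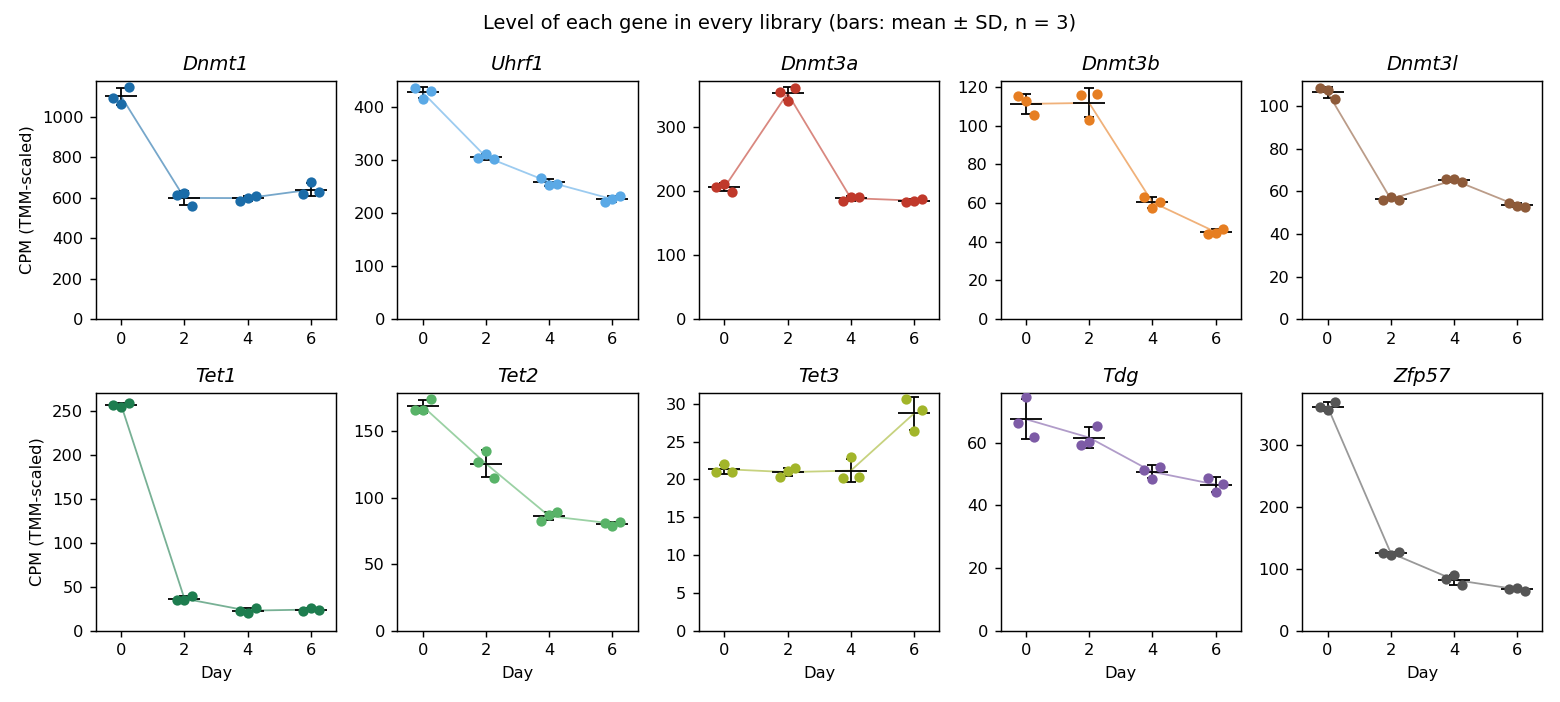
TMM-scaled CPM (vertical axis, from 0) of each of the 10 genes at days 0, 2, 4 and 6 (horizontal axis). Points are libraries, and bars give the mean ± SD of 3 libraries; Dnmt3a stands highest at day 2, Tet3 at day 6, and Tet1 and Zfp57 lie far below their day 0 level from day 2 on.

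The maintenance pair, Dnmt1 and Uhrf1, was lower at every later day than at day 0, but the 2 genes followed different courses. Dnmt1 (ENSMUSG00000004099.16, chromosome 9, 20907209 to 20959888, minus strand, GRCm38) had 1093, 1064 and 1149 CPM at day 0, 613, 626 and 560.0 at day 2, 587, 598 and 612 at day 4, and 617, 676 and 629 at day 6. All 9 later libraries lay below the 3 libraries of day 0, and the values of day 2 overlapped with those of days 4 and 6. Dnmt1 fell by 0.88 ± 0.05 (SE) on the log2 scale at day 2 against day 0, a 1.84-fold drop (edgeR quasi-likelihood test, adjusted p = 2.27e-19). Neither later step passed the same test. The log2 difference of day 4 from day 2 was -0.0025 (adjusted p = 0.971, 95% interval -0.10 to 0.09). That of day 6 from day 4 was 0.10 ± 0.05 (adjusted p = 0.0919, 95% interval 0.0024 to 0.19, not adjusted), so a small rise is possible.

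Uhrf1 (ENSMUSG00000001228.14, chromosome 17, 56303321 to 56323486, plus strand) went down in steps. It had 437, 416 and 430.1 CPM at day 0, 304, 312 and 302 at day 2, 266, 254 and 256 at day 4, and 220.4, 226 and 233 at day 6. No 2 days overlapped. The log2 changes were -0.48 ± 0.04 at day 2 against day 0 (adjusted p = 5.58e-13), -0.24 ± 0.04 at day 4 against day 2 (adjusted p = 9.33e-06) and -0.19 ± 0.04 at day 6 against day 4 (adjusted p = 0.000378). By day 6 the level was 1.89-fold lower than at day 0.

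Because the 2 genes moved by different amounts, the number of Dnmt1 counts per Uhrf1 count within a library changed over the days. It averaged 2.58 at day 0, 1.96 at day 2, 2.32 at day 4 and 2.83 at day 6, with log2 means ± SD of 1.37 ± 0.05, 0.97 ± 0.07, 1.21 ± 0.06 and 1.5 ± 0.08 (n = 3 each). An exact permutation test over the 369600 ways to assign the 12 libraries to 4 days of 3 gave p = 6.49e-05, the smallest it can give, and 0.000173 after Benjamini-Hochberg adjustment over 8 ratios. Such a ratio holds no scaling factor, and it is in counts rather than molecules, since the 2 genes differ in length. Genes of DNA replication were lower too: 18 S phase genes summed to 3817 to 3876 CPM at day 0, 2770 to 2896 at day 2, 2686 to 2708 at day 4 and 2384 to 2428 at day 6. Of these S phase genes 15 fell, 1 rose and 2 did not pass the test at day 6 against day 0. In the same comparison 37.5% of all tested genes were lower and 39.4% higher. The part of the S phase genes in the lower Dnmt1 and Uhrf1 levels was not tested.

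Both maintenance genes are known targets of the E2F factors, which drive genes of S phase, so their start sites were read for E2F words. The windows are from RefSeq (GRCm38.p6) and run from 250 bases before to 50 bases after an annotated start. Searched on both strands, TTTGGCGC was found in 0.515%, TTTCCCGC in 1.07% and TTCCCGCC in 2.19% of 32817 windows, and at least 1 of the 3 in 3.21%; the last 2 words can overlap each other. All 10 genes matched, with 19 windows between them, though 2 of the Dnmt3a windows overlap and so are not independent. An E2F word was present in 2 of the 19: TTTGGCGC in 1 of 3 windows of Dnmt1 and TTCCCGCC in 1 of 2 windows of Uhrf1. Those windows are printed to show where the words lie, in capitals, with CCAAT and its reverse complement ATTGG, the CCAAT box bound by NF-Y, which 37.4% of windows hold. The window of Tet1, the gene that fell most, is set beside them and has neither.
Dnmt1, chr9:20952574-20952873, minus strand: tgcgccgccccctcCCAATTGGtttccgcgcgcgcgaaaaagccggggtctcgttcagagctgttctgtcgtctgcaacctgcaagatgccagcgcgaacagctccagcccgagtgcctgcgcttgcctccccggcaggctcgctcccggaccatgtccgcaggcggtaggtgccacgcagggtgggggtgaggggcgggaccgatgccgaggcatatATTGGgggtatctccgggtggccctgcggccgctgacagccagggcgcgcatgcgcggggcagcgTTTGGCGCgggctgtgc
Uhrf1, chr17:56303087-56303386, plus strand: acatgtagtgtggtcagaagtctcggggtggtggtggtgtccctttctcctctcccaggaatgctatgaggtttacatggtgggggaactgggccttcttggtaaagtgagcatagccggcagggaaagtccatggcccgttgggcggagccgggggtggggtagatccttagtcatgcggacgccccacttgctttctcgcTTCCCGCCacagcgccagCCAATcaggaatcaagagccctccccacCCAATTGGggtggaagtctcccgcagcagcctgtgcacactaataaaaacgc
Tet1, chr10:62887275-62887574, minus strand: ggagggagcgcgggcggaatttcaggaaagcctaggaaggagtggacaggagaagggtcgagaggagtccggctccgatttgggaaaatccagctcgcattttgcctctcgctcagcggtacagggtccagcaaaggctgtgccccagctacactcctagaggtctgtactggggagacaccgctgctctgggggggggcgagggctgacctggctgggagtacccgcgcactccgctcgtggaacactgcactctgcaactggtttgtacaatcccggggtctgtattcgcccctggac
In the Dnmt1 window the E2F word lies 3′ of the CCAAT matches, whereas in the Uhrf1 window it lies 5′ of them. The Dnmt1 word is within the 50 bases after the annotated start, and the Uhrf1 word is within the 250 bases before it. The run CCAATTGG, present in both, is CCAAT and its reverse complement overlapping by 2 bases. The Dnmt1 and Tet1 windows lie inside the GENCODE gene spans, downstream of the outermost start, and the Uhrf1 window spans the start of its gene. These matches describe the letters only.

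The same windows differed widely in CpG content. The median over all windows was 7 CpG. The Tet2 window held 57, more than 99.8% of windows, and the windows of Dnmt3a held 46, 47 and 18, that of Dnmt3b 30, of Tdg 26, of Tet3 22 and of Tet1 17. The windows of Uhrf1 held 12 and 33, and those of Dnmt1 2, 12 and 33, the first being the lowest of the 19. Those of Dnmt3l held 6, 4 and 3, all under the median, and those of Zfp57 held 6, 9 and 4. The octamer ATGCAAAT, a POU factor word found in 1.74% of all windows, was in none of the 19.

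Among the genes for new methylation, Dnmt3a was high at day 2 alone, Dnmt3b was lower from day 4 on, and Dnmt3l was lower at each of the 3 later days. Dnmt3a (ENSMUSG00000020661.15, chromosome 12, 3806007 to 3914443, plus strand) had 206, 211 and 198 CPM at day 0, 354, 340.4 and 360.5 at day 2, 184, 191 and 191 at day 4, and 182, 184 and 187 at day 6. The 3 libraries of day 2 stand above the other 9, and those of days 4 and 6 overlap. Dnmt3a rose by 0.78 ± 0.04 on the log2 scale at day 2 against day 0 (adjusted p = 6.65e-19) and fell by 0.90 ± 0.04 at day 4 against day 2 (adjusted p = 2.67e-20). Its later levels lay slightly under day 0, with log2 differences of -0.12 ± 0.04 at day 4 (adjusted p = 0.0137) and -0.15 ± 0.04 at day 6 (adjusted p = 0.00221). These small differences hang on the scaling: with library size alone they were 0.0051 (adjusted p = 0.923) and -0.05 (adjusted p = 0.325). The day 4 call was also lost without day 0 replicate 2 (adjusted p = 0.0604), without day 4 replicate 1 (adjusted p = 0.0738) and with no filter on low counts (adjusted p = 0.243).

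Dnmt3b (ENSMUSG00000027478.15, chromosome 2, 153649450 to 153687730, plus strand) had 115, 113 and 105 CPM at day 0, 116, 103 and 116 at day 2, 63.3, 57.7 and 60.3 at day 4, and 43.8, 44.6 and 46.8 at day 6. Days 0 and 2 overlap, and days 4 and 6 are apart from them and from each other. The log2 difference at day 2 against day 0 was 0.0053 ± 0.05 (adjusted p = 0.936, 95% interval -0.10 to 0.11), and with library size alone it was 0.14 (adjusted p = 0.0218). Dnmt3b then fell by 0.89 ± 0.06 at day 4 against day 2 (adjusted p = 1.46e-16) and by a further 0.43 ± 0.06 at day 6 against day 4 (adjusted p = 5.63e-07). At day 6 it was 2.47-fold lower than at day 0. The rodent gene Dnmt3c is nearly identical to Dnmt3b over part of its length, so how reads were split between them is uncertain. Dnmt3c averaged 2.22, 2.39, 1.46 and 0.26 CPM at days 0, 2, 4 and 6.

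Dnmt3l (ENSMUSG00000000730.13, chromosome 10, 78041947 to 78063622, plus strand) had 108, 108 and 104 CPM at day 0, 55.9, 57.2 and 56.2 at day 2, 65.7, 65.8 and 64.5 at day 4, and 54.4, 53.3 and 52.6 at day 6. No 2 days overlapped, and day 4 lay between day 0 and day 2. The log2 change was -0.92 ± 0.05 at day 2 against day 0 (adjusted p = 5.49e-19), followed by 0.21 ± 0.05 at day 4 against day 2 (adjusted p = 0.000880) and -0.29 ± 0.05 at day 6 against day 4 (adjusted p = 2.78e-05). The partial return at day 4 was a 1.16-fold rise.

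The same counts were also set against each other within a library, as ratios of the 3 genes that hold no scaling factor. Counts of Dnmt3a per count of Dnmt3b averaged 1.84, 3.15, 3.12 and 4.09 at days 0, 2, 4 and 6 (exact permutation test over 12 libraries, p = 0.000584, adjusted 0.000668). The log2 ratio of Dnmt3l to Dnmt3a was -0.94 ± 0.02 at day 0, -2.64 ± 0.06 at day 2, -1.53 ± 0.04 at day 4 and -1.79 ± 0.04 at day 6 (exact permutation p = 6.49e-05, the smallest possible, adjusted 0.000173). That ratio was lowest at day 2, where Dnmt3a was high and Dnmt3l low. The log2 ratio of Dnmt3l to Dnmt3b was -0.06 ± 0.03, -0.98 ± 0.12, 0.11 ± 0.07 and 0.24 ± 0.07 (exact permutation p = 0.00013, adjusted 0.000208), lowest at day 2 and highest at day 6.

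Levels of different genes were compared as CPM per kilobase of annotated exon. On that scale Dnmt1 stood at 149, 81.3, 81.2 and 86.9 at days 0, 2, 4 and 6. It made up 81.4 ± 1.2% of the summed level of the catalytic genes Dnmt1, Dnmt3a and Dnmt3b at day 0, 65.4 ± 2.3% at day 2, 77.8 ± 0.5% at day 4 and 81.3 ± 0.8% at day 6 (SD, n = 3 each). Dnmt1 was thus the main methyltransferase transcript on all 4 days, least so at day 2. Dnmt3l took 51.1% of the summed Dnmt3a, Dnmt3b and Dnmt3l level at day 0, 30.5% at day 2, 48.6% at day 4 and 47.3% at day 6. Whether Dnmt3a or Dnmt3b was the higher at days 2 and 4 depends on the length used. By exon length they were at 21.1 and 21.9 CPM per kilobase at day 2 and 11.3 and 11.8 at day 4, and by the longest coding transcript, a choice made after seeing the data, at 36.3 and 25.9 and at 19.5 and 14.0. Counts per gene also do not separate isoforms, such as the long and short forms of Dnmt3a.

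Of the TET genes, Tet1 and Tet2 fell and Tet3 rose late. Tet1 (ENSMUSG00000047146.17, chromosome 10, 62804570 to 62908996, minus strand) had 257, 255 and 259 CPM at day 0, 34.9, 35.4 and 39.6 at day 2, 22.7, 19.8 and 26.3 at day 4, and 22.7, 26.1 and 23.6 at day 6. All later libraries lie far under day 0, and days 4 and 6 overlap. Tet1 fell by 2.82 ± 0.06 on the log2 scale at day 2 against day 0 (adjusted p = 8.65e-33) and by 0.69 ± 0.08 at day 4 against day 2 (adjusted p = 1.22e-09). The log2 difference of day 6 from day 4 was 0.09 ± 0.09 (adjusted p = 0.426). At day 6 the level was 10.7-fold lower than at day 0.

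Tet2 (ENSMUSG00000040943.12, chromosome 3, 133463679 to 133545139, minus strand) had 166, 166 and 174 CPM at day 0, 127, 135 and 115 at day 2, 82.9, 86.8 and 89.2 at day 4, and 81.3, 79.1 and 81.8 at day 6. No 2 days overlapped, though days 4 and 6 lie close. It fell by 0.42 ± 0.05 on the log2 scale at day 2 against day 0 (adjusted p = 1.06e-09) and by 0.55 ± 0.05 at day 4 against day 2 (adjusted p = 2.09e-11), and the difference of day 6 from day 4 was -0.09 ± 0.06 (adjusted p = 0.179). The drop at day 6 against day 0 was 2.09-fold.

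Tet3 (ENSMUSG00000034832.15, chromosome 6, 83362373 to 83459084, minus strand) had 21.0, 22.1 and 21.0 CPM at day 0, 20.4, 21.1 and 21.5 at day 2, 20.2, 22.96 and 20.3 at day 4, and 30.7, 26.4 and 29.1 at day 6. The 3 libraries of day 6 are above the other 9, which overlap. The log2 difference from day 0 was -0.03 ± 0.09 at day 2 (adjusted p = 0.797, 95% interval -0.20 to 0.15) and -0.0068 ± 0.09 at day 4 (adjusted p = 0.950, 95% interval -0.19 to 0.18), and at day 6 Tet3 rose by 0.44 ± 0.08 (adjusted p = 1.60e-05). The sums of fibroblast genes and of extraembryonic endoderm markers given above were also highest at day 6. All 8 extraembryonic endoderm markers rose at day 6 against day 0. At day 6 against day 0, of the 8 fibroblast genes with enough counts 6 rose and 2 fell, and the neuroectoderm markers (8 in the list) summed to 118 to 133 CPM at day 6 against 83.1 to 90.0 at day 0. Of those 8 neuroectoderm markers 6 rose, among them Nes and Pax6, with means of 63.5 and 25.3 CPM at day 6 and 20.04 and 1.81 at day 0. The other 2 fell: Tubb3 averaged 13.7 CPM at day 6 and 45.9 at day 0, and Sox1 5.18 at day 6 and 12.7 at day 0. Among all tested genes 39.4% were higher and 37.5% lower at day 6 against day 0. The part of any of these marker lists in the Tet3 level was not tested.

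The make-up of the TET transcripts changed with this. By exon length, the 3 genes together stood at 8.07 ± 0.10 CPM per kilobase at day 6, against 27.9 ± 0.4 at day 0 (SD, n = 3 each). Tet1 took 59.6 ± 0.4% of that sum at day 0, 21.4 ± 2.3% at day 2, 18.8 ± 2.2% at day 4 and 19.4 ± 1.7% at day 6. Tet2 took 35.8%, 67.2%, 65.0% and 59.3%, and Tet3 4.58%, 11.4%, 16.1% and 21.3%. Tet2 was the main TET transcript at days 2, 4 and 6 with either length. At day 0 Tet1 led with exon length, and with the longest coding transcript Tet1 and Tet2 took 46.8% and 48.1%. A ratio of counts within a library needs no length to be followed over the days. The log2 ratio of Tet1 to Tet3 was 3.59 ± 0.05, 0.80 ± 0.07, 0.11 ± 0.30 and -0.25 ± 0.21 (exact permutation test over 12 libraries, p = 0.00013, adjusted 0.000208). The log2 ratio of Tet1 to Tet2 was 0.61 ± 0.03, -1.78 ± 0.21, -1.92 ± 0.19 and -1.74 ± 0.13 (exact permutation p = 0.0087, adjusted 0.0087), and that of Tet2 to Tet3 was 2.98 ± 0.07, 2.58 ± 0.14, 2.03 ± 0.11 and 1.49 ± 0.09 (exact permutation p = 6.49e-05, adjusted 0.000173). The Tet1 to Tet2 ratio thus moved within the first 2 days, and the Tet2 to Tet3 ratio had a lower mean on each later day than on the one before.

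**Figure D2:**
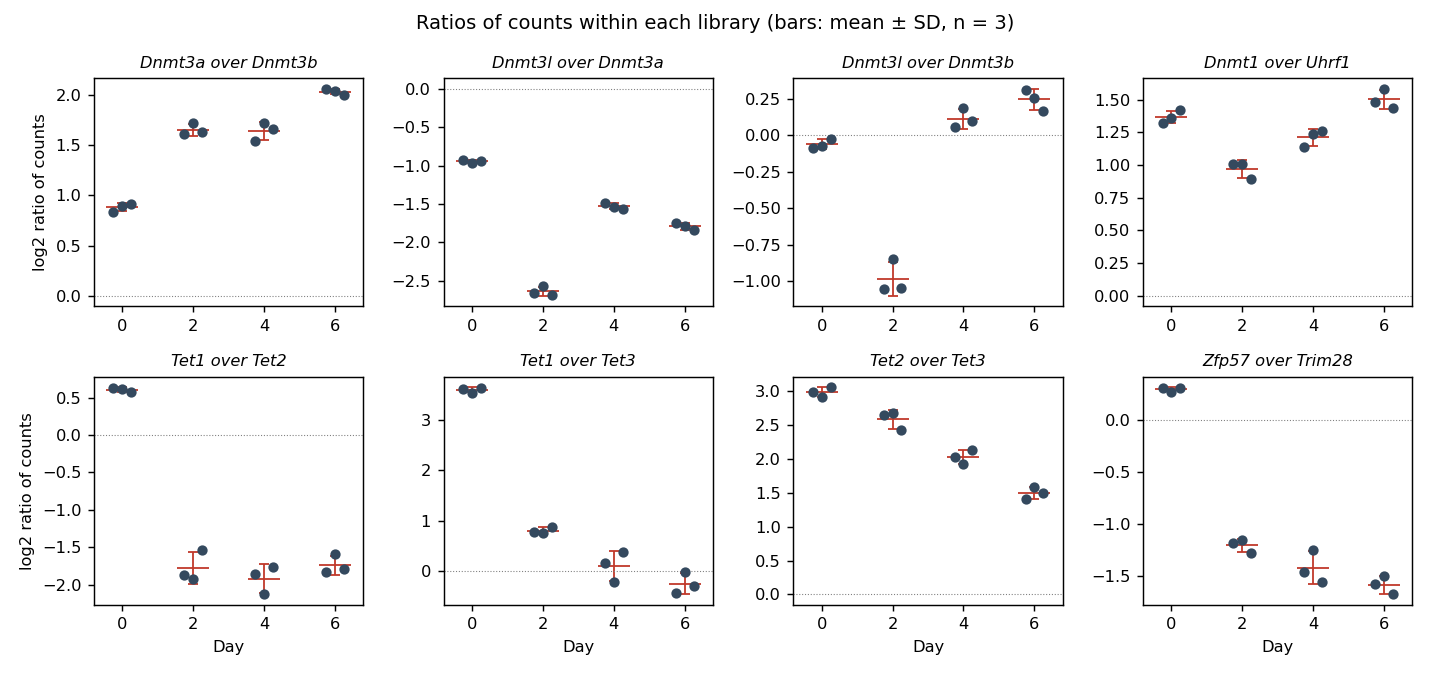
Log2 ratio of counts of 2 genes within a library (vertical axis) by day (horizontal axis), for the 8 ratios tested; points are libraries and bars give the mean ± SD of 3 libraries. Dnmt3l to Dnmt3a is lowest at day 2, Dnmt1 to Uhrf1 dips at day 2 and is highest at day 6, and Tet1 to Tet3 goes down across the 4 days.

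Tdg (ENSMUSG00000034674.18, chromosome 10, 82629828 to 82650799, plus strand), the glycosylase that acts after the TET enzymes, moved little and late. It had 66.1, 74.4 and 61.9 CPM at day 0, 59.3, 60.3 and 65.3 at day 2, 51.4, 48.3 and 52.4 at day 4, and 48.8, 44.3 and 46.9 at day 6. Days 0 and 2 overlap and so do days 4 and 6, with the later pair under the earlier. The log2 difference at day 2 against day 0 was -0.13 ± 0.06 (adjusted p = 0.0579). That value sits at the threshold: the adjusted p was 0.0138 without day 0 replicate 3, 0.0250 without day 2 replicate 3 and 0.0442 with median-ratio scaling. Tdg fell by 0.28 ± 0.06 at day 4 against day 2 (adjusted p = 0.000286), and at day 6 it was 1.44-fold lower than at day 0 (adjusted p = 2.83e-09). A processed copy, Tdg-ps, averaged 7.62, 6.92, 5.21 and 5.63 CPM over the 4 days, so reads may be split between the 2. How reads with several positions were treated is not given, so the Tdg-ps level does not bound the uncertainty of Tdg.

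Zfp57 (ENSMUSG00000036036.15, chromosome 17, 37001163 to 37010635, plus strand) fell at each step. It had 360.1, 356 and 369 CPM at day 0, 126, 123 and 127 at day 2, 82.8, 89.8 and 74.0 at day 4, and 67.0, 68.5 and 64.7 at day 6. No 2 days overlapped, and most of the drop was in place by day 2. The log2 change was -1.53 ± 0.05 at day 2 against day 0 (adjusted p = 4.73e-27), -0.60 ± 0.05 at day 4 against day 2 (adjusted p = 1.63e-12) and -0.31 ± 0.06 at day 6 against day 4 (adjusted p = 2.05e-05). Day 6 stood 5.41-fold under day 0.

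The corepressor Trim28, which ZFP57 and other KRAB zinc finger proteins share, followed another course, with means of 294, 288, 219 and 199.9 CPM. Its log2 difference was -0.03 at day 2 against day 0 (adjusted p = 0.588) and -0.56 at day 6 against day 0 (adjusted p = 1.05e-13). The log2 ratio of Zfp57 to Trim28 was 0.30 ± 0.02, -1.20 ± 0.06, -1.42 ± 0.16 and -1.58 ± 0.09 (exact permutation test over 12 libraries, p = 0.00039, adjusted 0.000519). Zfp445 encodes another zinc finger protein that protects imprints, and it went in the opposite direction to Zfp57. It averaged 56.6 ± 1.8 CPM at day 0, 109 ± 4.2 at day 2, 120.06 ± 1.55 at day 4 and 114 ± 3.1 at day 6 (SD, n = 3 each). Zfp445 rose by 0.94 ± 0.05 on the log2 scale at day 2 against day 0 (adjusted p = 7.90e-19) and by 1.01 ± 0.05 at day 6 against day 0 (adjusted p = 5.21e-20).

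**Figure D3:**
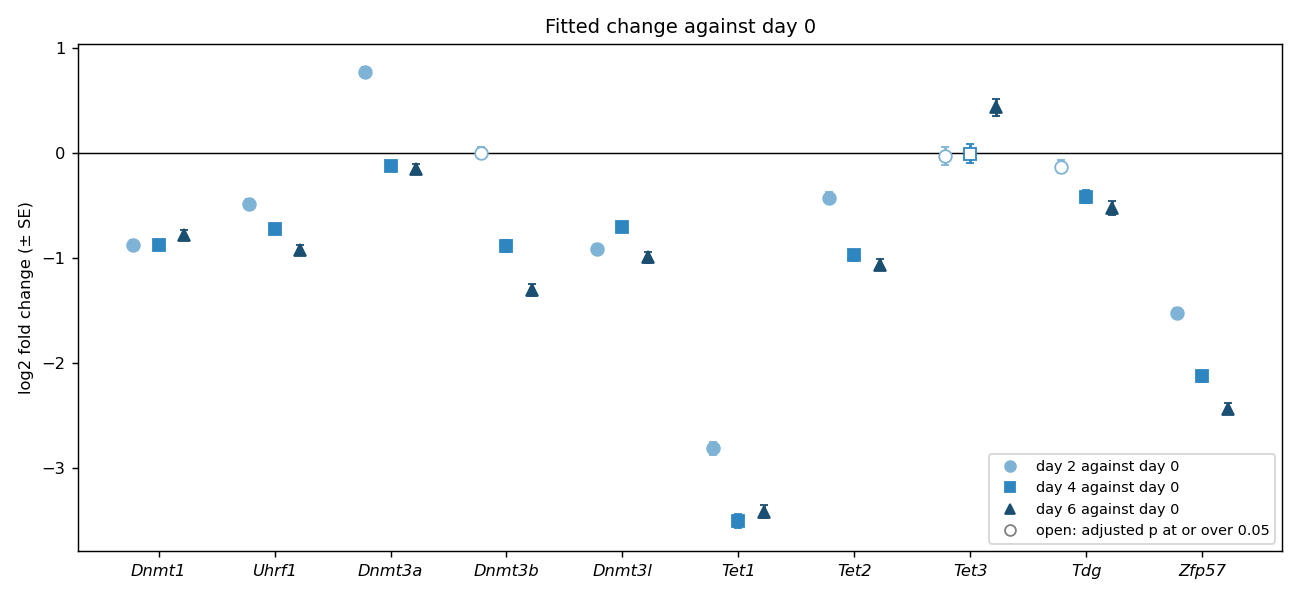
Log2 fold change against day 0 (vertical axis) of the 10 genes (horizontal axis) at days 2, 4 and 6 (circles, squares and triangles), with bars of ± SE from the edgeR fit; open points have an adjusted p of at least 0.05. Tet1 and Zfp57 lie lowest on all 3 days, Dnmt3a lies clearly above 0 at day 2 and Tet3 at day 6, and with library size alone Dnmt3a at day 4 is at 0.0051.

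Counted together, 7 of the 10 genes changed at day 2 against day 0, and 68.1% of all 16468 tested genes did. At day 4 against day 0, 9 changed (73.6% of all genes), and at day 6 against day 0 all 10 did (76.9% of all genes). Changes were this common in the whole table, so a count of changed genes says little about these 10. Their direction was less even than that of the table. At day 2 against day 0, 1 was higher and 6 were lower, where 34.9% of all genes were higher and 33.2% lower. At day 4 against day 0, 0 were higher and 9 lower, where 37.5% of all genes were higher and 36.1% lower. At day 6 against day 0, 1 was higher and 9 were lower, where 39.4% of all genes were higher and 37.5% lower. The median log2 difference of the 10 genes was -0.45, -0.80 and -0.96, and that of all tested genes 0.02, 0.01 and 0.02. Between successive days, 8 changed at day 4 against day 2 (50.1% of all genes), with 1 higher and 7 lower, where 25.3% of all genes were higher and 24.8% lower. At day 6 against day 4, 5 changed (42.9% of all genes), with 1 higher and 4 lower, where 23.6% of all genes were higher and 19.3% lower. All 10 passed the F-test over the 4 days, as 89.2% of all genes did. At day 6, Dnmt3b, Tet1, Tet2 and Zfp57 differed at least 2-fold from day 0, as 32.1% of all genes did. For Dnmt3l, Uhrf1, Tet2 and Zfp57 all 4 days were apart with no overlap between libraries, as they were for 16.1% of all genes.

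The share of rises over all genes depends on the scaling. At day 2 against day 0 there were 5743 higher and 5473 lower genes, which is 51.2% higher, and with library size alone 7053 higher and 4412 lower, which is 61.5% higher. That scaling moved the median of all genes by 0.13, 0.13 and 0.10 on the log2 scale at days 2, 4 and 6 against day 0. Under it 8, 8 and 9 of the 10 genes changed at those days, Dnmt3b being added at day 2 as higher and Dnmt3a lost at days 4 and 6.

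Beyond the 10, 7 lists of partner genes were counted, to be read beside the share of all genes given above, 39.4% higher and 37.5% lower at day 6 against day 0. Ctcfl, Dppa3, Mbd4 and Prdm14 each stand in 2 lists. Of 11 partners of maintenance methylation, 1 rose and 8 fell at day 6 against day 0, with a median log2 difference of -0.45. Hells, the remodeller that opens nucleosomal DNA to methylation, averaged 482, 337, 289 and 231 CPM at days 0, 2, 4 and 6. Pcna, the sliding clamp at the replication fork, averaged 287, 223, 209 and 162, and Usp7, a deubiquitinase that stabilises UHRF1 and DNMT1, 541, 434, 406 and 339. The means of these 3 genes, like that of Uhrf1, were lower on each later day than on the one before. Dppa3, which keeps UHRF1 off chromatin and protects methylation in the early mouse embryo, averaged 16.2, 3.36, 10.004 and 14.7 CPM and fell by 2.26 ± 0.13 on the log2 scale at day 2 against day 0 (adjusted p = 3.66e-18). It has near-identical copies in the genome, so its counts are uncertain.

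In the list of 11 genes for guidance or repression of the DNMT3 enzymes, 5 rose and 6 fell at day 6 against day 0, with a median of -0.39. Dnmt3c, itself a DNMT3 gene, is counted among the 11. Prdm14, which represses Dnmt3b and Dnmt3l in naive mouse ES cells, averaged 26.1, 4.14, 1.92 and 1.49 CPM, and its log2 difference at day 6 against day 0 was -4.15 ± 0.16 (adjusted p = 3.22e-24). Dnmt3b and Dnmt3l were lower at day 6 too. Nsd2, a methyltransferase for H3K36, whose dimethylation draws DNMT3A, averaged 70.6, 121, 141 and 158 CPM. Ehmt2, one of the H3K9 methyltransferases, averaged 142, 193, 192 and 247, and Mphosph8, a subunit of the HUSH silencing complex, 146, 105, 99.6 and 79.2. Among 10 genes of imprint protection, 2 rose and 4 fell at day 6 against day 0, with a median of -0.10, and the remodeller Atrx averaged 334, 257, 199 and 242 CPM.

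Of 10 TET cofactor and regulator genes, 1 rose and 6 fell at day 6 against day 0, with a median of -0.21. Idh1, which makes the TET cosubstrate 2-oxoglutarate in the cytosol, averaged 85.0, 132, 88.2 and 88.8 CPM, and its rise at day 2 against day 0 was 0.64 on the log2 scale (adjusted p = 1.15e-13). Like Dnmt3a, it was highest at day 2. The mitochondrial Idh2 averaged 293, 222, 212 and 229 CPM.

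Among 14 genes of base excision repair and demethylation, 4 rose and 7 fell at day 6 against day 0, with a median of -0.19. Parp1, a sensor of DNA breaks, averaged 738, 427, 302 and 281 CPM and fell by 1.39 ± 0.04 on the log2 scale at day 6 against day 0 (adjusted p = 9.74e-28). Ung, a uracil glycosylase, averaged 46.8, 28.9, 22.6 and 16.7 CPM. Gadd45g, a stress protein linked to active demethylation, averaged 1.23, 16.6, 21.5 and 28.9 CPM and rose 23.2-fold at day 6 against day 0 (adjusted p = 5.21e-25). Its relative Gadd45b averaged 48.7, 22.3, 22.5 and 44.6 CPM, and at day 6 its log2 difference from day 0 was -0.13 (adjusted p = 0.0770). The 2 relatives thus did not share a course.

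Readers of methyl-CpG were the list with the highest median, 0.64 on the log2 scale at day 6 against day 0, where 6 of 9 rose and 2 fell. Mbd2, which brings the NuRD complex to methylated DNA, averaged 22.8, 56.7, 69.1 and 97.2 CPM and rose 4.28-fold at day 6 against day 0 (adjusted p = 5.40e-26). Mbd1, another reader of methylated CpG, averaged 47.1, 60.6, 77.3 and 87.0. Zbtb4 averaged 4.25, 6.73, 9.84 and 15.2, while its relative Zbtb38 averaged 20.1, 23.9, 11.8 and 15.6; both are zinc finger proteins that bind methylated DNA.

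Genes that supply the methyl donor had the lowest median, -0.59 at day 6 against day 0, where 3 of 15 tested genes rose and 10 fell. Mat1a, the liver form of methionine adenosyltransferase, was the member of the 16 that was not tested. Mthfd1, a folate enzyme, averaged 604, 275, 203 and 184 CPM and fell by 1.71 ± 0.04 on the log2 scale (adjusted p = 1.96e-30). Gldc, which splits glycine, averaged 89.5, 57.3, 28.5 and 18.4 CPM, and Shmt2, the mitochondrial serine hydroxymethyltransferase, 112, 86.9, 56.0 and 38.1. Tdh, the threonine dehydrogenase on which mouse ES cells are known to depend, averaged 41.8, 6.79, 8.91 and 7.90 CPM, with most of its drop by day 2, like Tet1.

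The counts differed by day. At day 2 against day 0 the counts of higher and lower genes were 1 and 6 for the maintenance partners, 5 and 4 for DNMT3 guidance, 5 and 3 for imprint protection, 2 and 4 for the TET cofactors, 3 and 8 for base excision repair, 6 and 1 for the readers and 4 and 10 for methyl donor supply. At day 4 against day 0 they were 1 and 8, 5 and 5, 2 and 4, 1 and 6, 4 and 6, 5 and 1, and 4 and 10 in the same order. In none of the 7 lists did all tested genes pass on 1 side. These counts are with TMM scaling alone.

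**Figure D4:**
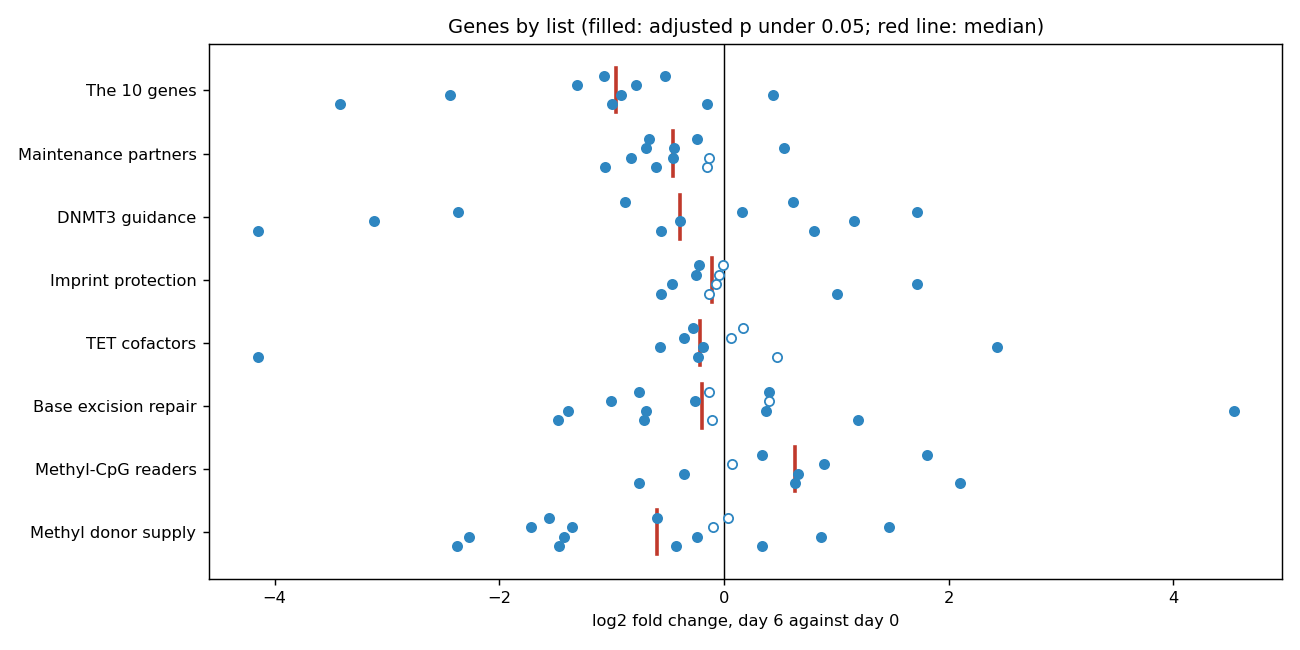
Log2 fold change at day 6 against day 0 (horizontal axis) of each tested gene in the 10 genes and the 7 partner lists (rows). Points are genes, filled where the adjusted p is under 0.05, and the red line is the median of a list, which runs from -0.96 for the 10 genes to 0.64 for the methyl-CpG readers.

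Finally, each gene was matched with up to 3 genes whose log2 CPM was most like it over the 12 libraries, among 10139 genes with at least 10 CPM on some day. Pearson r is a description here: libraries of a day lie close together, so 12 libraries hold about as many patterns as 4 days allow. Tet1 was most like Jakmip1 (0.997), Utp14a (0.996) and Ahdc1 (0.995), and Zfp57 was most like Tcea3 (0.998), Sun1 (0.997) and the ES cell marker Zfp42 (0.997). Uhrf1 was most like Ybx1 (0.997), Ccdc88c (0.996) and Fgf4 (0.995), and Dnmt1 was like Pcnt (0.996) and Anxa6 (0.995). The day 2 peak of Dnmt3a was shared most closely by Dkc1 (0.988), Zmym3 (0.982) and Col18a1 (0.982). Dnmt3b was nearest to Rad21 (0.993), Elovl6 (0.992) and Eif4a1 (0.991), and Dnmt3l to Umps (0.994), Snupn (0.994) and Gins2 (0.992). Tet2 was nearest to Jarid2 (0.993), Rbm28 (0.992) and Mmut (0.992). The least closely matched were Tdg, with Pmpcb (0.973), Nhsl1 (0.969) and Oip5 (0.967), and Tet3, with Sil1 (0.967), Uhmk1 (0.961) and Phka2 (0.951). Those 2 also had the smallest differences between days.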

How the data were processed

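The authors deposited raw read counts for each gene in 12 libraries, which were checked to be whole numbers. RNA extraction used a MiniBEST kit and library preparation a SMARTER mRNA-Seq kit, per the labels' protocols. Of tools, the submitters' processing notes list HISAT2 2.1.0 and featureCounts 2.0.1, beside FastQC 0.11.7 and DESeq2, and the build mm10, without their roles. Strandedness and the treatment of reads with several positions are not given in the sources used here. Exons of Dnmt3l, Tdg, Tet2 and Dnmt3a overlap a gene on the other strand over 67, 367, 43 and 133 bases, and those genes had 1003, 82, 1 and 2 counts in all libraries, against 8203 for Dnmt3l and 6802 for Tdg.

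The test was run in edgeR 4.0.16 under R 4.3.3: filterByExpr by day (16468 genes kept), TMM scaling, and a robust quasi-likelihood fit with a coefficient per day over all libraries. Tests were two-sided, with Benjamini-Hochberg adjustment over all genes tested and a threshold of 0.05. Days 2, 4 and 6 share the day 0 libraries. Between replicates, chi-square over degrees of freedom was 1.51 to 3.80 for gene counts, so no 2 libraries agreed within counting error. Ratios within a library used counts plus 0.5. Likeness used a prior count of 2. Lengths and coordinates come from GENCODE M21, and promoter windows from RefSeq. Replicate numbers were not treated as pairs, since same-numbered libraries did not deviate together (18 correlations, -0.038 to 0.034).

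The members and lists were chosen with earlier results of these data known. The text names all 10 members and, from each list, up to 4 genes with the smallest F-test p; items withheld for evaluation are not reported here. Alternatives were median-ratio scaling, library size alone, no filter, a replicate block, each library left out, the 6 libraries of a comparison alone, DESeq2 1.42.0, limma-voom (limma 3.58.1) and a ratio offset of 1. A second length was added after seeing the data. Scripts were tested on simulated data. Figures used Python 3.11.15 and matplotlib 3.10.9.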

Additional observations from a re-analysis of the deposited data

How the results depend on the processing

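Each comparison was rerun under all alternatives. Of 1130 values for single members, 1121 kept their direction and their side of the threshold, 4 came to pass it, 4 no longer passed it and 1 reversed: the log2 difference of Dnmt3a at day 4 against day 0 was 0.0051 with library size alone (adjusted p = 0.923). The others are given beside Dnmt3a, Dnmt3b and Tdg above, and for those that change with the scaling the cause was not tested. All 113 counts of changed genes, all 113 counts of changed members and all 112 ratio tests stayed within 1.5 times or on the same side. The shares per kilobase did not: with the longest coding transcript as length, 34 of 36 moved and 2 stayed the same. At day 2 the Tet1 share of the TET sum went from 21.4% to 14.1%, and the Tet2 share from 67.2% to 75.3%. The SD printed beside a share covers the spread of libraries alone, not the choice of length. With each library left out in turn, the members changed were 7 to 8 at day 2 against day 0, 8 to 9 at day 4 against day 0, 10 at day 6 against day 0, 8 at day 4 against day 2 and 5 at day 6 against day 4.

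Replicate numbers recur on each day. The fit with them as a replicate block gave 11195, 12075, 12630, 8180 and 7004 changed genes in those 5 comparisons and the same 7, 9, 10, 8 and 5 member counts, and 14635 genes and 10 members over the 4 days. Permuting within the block gave adjusted p between 0.00278 and 0.0347 for the 8 ratios. With correlations averaged by replicate number, 4 of the 12 libraries had their highest mean with their own number, out of 3 numbers. Depth limits Tet3 most, with 520 counts over the 3 libraries of day 0. With 3 libraries per day, an exact test of 2 days cannot go below p = 0.10, so ratios were tested only over the 4 days together.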

Other observations

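A list of 12 genes of the two-cell-like state, a rare totipotent-like state of mouse ES cells, summed to 29.7 to 32.0 CPM at day 0, 399.6 to 418 at day 2, 396 to 422 at day 4 and 119 to 129 at day 6. All 12 were higher on each later day than at day 0. They belong to the Zscan4, Usp17l and Tcstv families, whose close copies may share reads, so their rises may not be separate observations. Among all tested genes 34.9%, 37.5% and 39.4% were higher at days 2, 4 and 6 against day 0. The shares of lower genes were 33.2%, 36.1% and 37.5%, and the germ cell counts below are to be read beside them too. A list of 8 germ cell genes, several of which are known in mouse to be silenced by promoter methylation, summed to 325 to 346, 3213 to 3319, 2118 to 2233 and 786 to 844 CPM. Stra8, a gene of meiotic entry, made up most of that sum, with means of 177, 2992, 1766 and 539.5 CPM. Dazl, an RNA-binding protein of germ cells, averaged 39.1, 190.1, 308 and 169.6 CPM, and Ddx4, a germ cell helicase, 14.9, 21.6, 32.1 and 38.1. The list did not move as a whole: of its 7 tested genes 5 were higher and 2 lower at each of days 2, 4 and 6 against day 0. The 2 lower genes were the transcription factors Tfap2c, with means of 53.8, 7.71, 3.86 and 4.15 CPM, and Prdm1, with 13.7, 8.16, 5.65 and 2.56. Methylation itself was not measured in these libraries.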
